A study of Mus musculus with 6 samples.

Results

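Livers of C57BL/6J mice on a high-fat diet were compared between week 10 and week 2 of feeding. The comparison uses 2 of the 6 arrays of the series, the high-fat array of week 10 and that of week 2, which were chosen by their labels and not by any measured value. The study assigned C57BL/6J mice at random to a control or a high-fat diet and profiled liver RNA on Affymetrix arrays, 1 for each diet at each of weeks 2, 4 and 10. The arrays of weeks 2 and 10 share a smaller array design and 1 deposited table, whereas the week 4 arrays are of a larger design and were not used here. All groups are wild-type mice of 1 inbred strain, the diet is the only treatment named, and identical liver lobes were taken. The labels give neither age, sex, diet composition nor time of day, and do not say whether an array holds RNA of 1 mouse or of a pool. With 1 array a side no test of the difference exists, so sizes are given with no p-value, and a difference between the 2 livers or mice of these arrays cannot be told apart from a difference between the weeks.

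The liver turns surplus dietary carbon into fatty acids, triglycerides and cholesterol and exports them in lipoproteins. Fatty acid synthesis runs from citrate through acetyl-CoA and malonyl-CoA to palmitate, which is then elongated, desaturated and esterified, and its enzymes are transcribed under the sterol regulatory element-binding protein SREBP-1c and the carbohydrate-responsive factor ChREBP. Cholesterol synthesis runs through mevalonate, farnesyl pyrophosphate, squalene and lanosterol, and its enzymes answer mainly to SREBP-2, which the INSIG proteins hold back in the endoplasmic reticulum when sterols are plentiful. In fasting the liver turns instead to fatty acid oxidation, ketogenesis and gluconeogenesis under PPARα, glucagon and glucocorticoids.

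Values are the deposited linear signal of a probe set, a set of short probes against 1 transcript, after each array was shifted on the log2 scale to a common centre; this is called the rescaled signal. Signals under a floor of 138.9 were set to it, so that a fold with 1 side at the floor is a lower bound and is written "at least". Each of the 12393 genes with 1 symbol was represented by its brightest probe set, and the 9098 genes that exceeded the floor on 1 or both high-fat arrays are counted. A further probe set of a gene is compared only where it exceeded the floor on a high-fat array. A fold is week 10 against week 2, and a log2 difference is week 10 minus week 2. The control-diet arrays of the same 2 weeks are given for most genes as the background of the interval without the high-fat diet.

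The 2 high-fat arrays differed more than any other pair of the 4. Over 11175 probe sets above the floor on all 4 arrays, the log2 difference had an SD of 0.62 between the high-fat weeks and of 0.48 between the control weeks, with SDs of 0.42 to 0.54 in the other 4 pairs. The week 10 array was written with up to 6 decimals, whereas the other 3 hold 1 at most, so a difference in how its values were made cannot be told apart from the week. The 3′ to 5′ probe ratio of actin, which grows as RNA degrades, was 1.61 at week 2 and 1.17 at week 10 on the high-fat diet and 1.20 and 1.73 on the control diet. That of pyruvate carboxylase was 9.64 on the high-fat week 2 array and 2.39 to 4.01 on the other 3. The part of these array differences in the results below was not tested.

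At least 2-fold higher on the week 10 array were 365 of 9098 genes, or 4.01%, and at least 2-fold lower were 388, or 4.26%. Either way this is 8.28% of the genes counted. At 1.5-fold the counts were 1508 genes higher, or 16.6%, and 1210 lower, or 13.3%. All list counts below are to be read beside these shares of all genes. Among the 2-fold genes, 106 of those higher and 82 of those lower had 1 array at the floor, so their folds are bounds. A difference of at least 4-fold was found for 21 genes in the higher direction and for 15 in the lower direction. The median log2 difference over all genes counted was 0.07. By any amount, 5022 of the 9098 genes were higher and 4076 lower. List counts of members simply higher or lower are to be read beside these. Over the same 9098 genes the control interval had 224 genes at least 2-fold higher, or 2.46%, and 163 lower, or 1.79%, together 4.25%. Restricted to the 7101 genes above the floor on all 4 arrays, so that neither interval was favoured by the filter, the high-fat interval had 3.39% of genes at least 2-fold higher and 4.24% lower, together 7.63%. The control interval had 2.18% and 1.69%, together 3.87%, on these genes. At 1.5-fold the shares were 15.1% and 13.9% on the high-fat diet and 10.2% and 8.24% on the control diet.

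**Figure D1:**
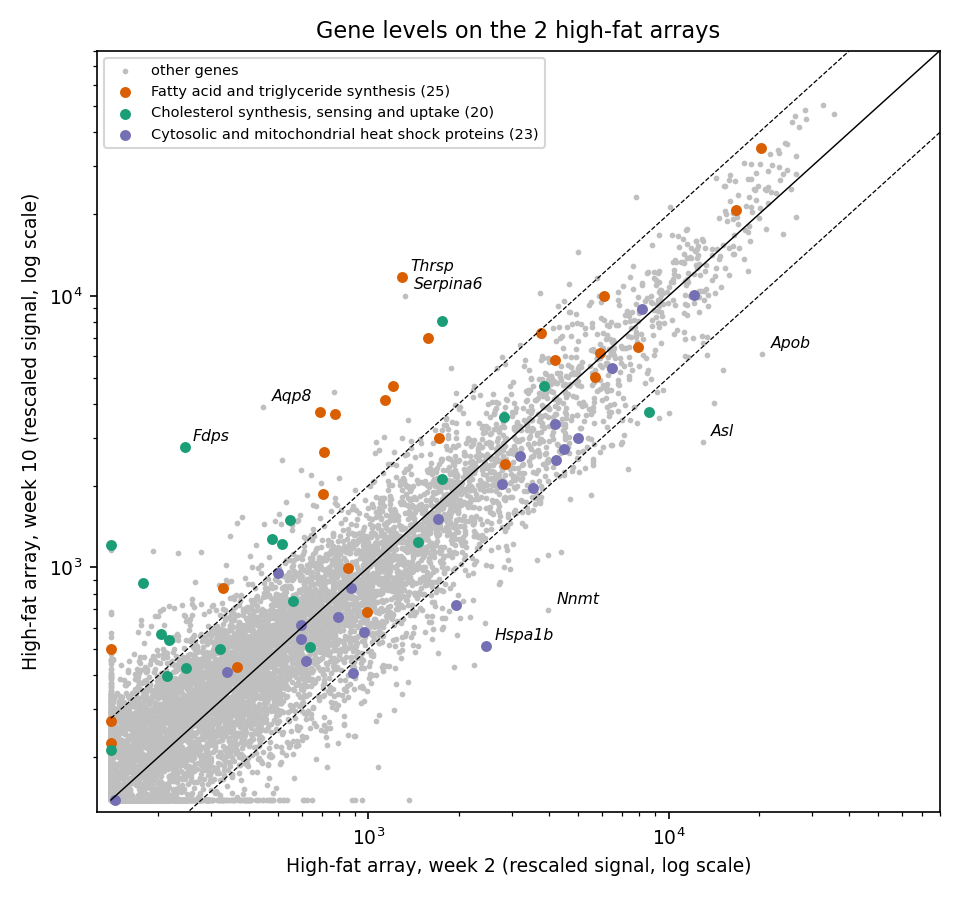
Rescaled signal of each gene counted on the high-fat week 2 array (horizontal axis, log scale) against the high-fat week 10 array (vertical axis, log scale). The solid line marks equal signal and the dashed lines 2-fold; 10 of 25 fatty acid and triglyceride synthesis genes and 9 of 20 sterol genes lie on or above the upper dashed line, and genes on the straight edges are at the floor of 138.9.

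Genes of fatty acid synthesis were mostly higher on the week 10 array. Of 25 members counted in a list of fatty acid and triglyceride synthesis, 21 were higher and 4 lower on the week 10 array; 16 were at least 1.5-fold higher and none was 1.5-fold lower, against 16.6% and 13.3% of all genes. At 2-fold, 10 were higher. The list's median log2 difference was 0.80, against 0.07 over all genes, and lay between 0.79 and 0.96 over the processing alternatives. Its median on the control diet was 0.26, where 7 of the 25 were at least 1.5-fold higher and 2 lower, against 10.7% and 8.52% of all genes.

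The transcription factors of the pathway were among them. Srebf1, the gene of SREBP-1, gave 777 on the high-fat week 2 array and 3668 on the week 10 array, with 637 and 1783 on the control arrays of those weeks. It was thus 4.72-fold higher on the high-fat diet and 2.80-fold higher on the control diet. Mlxipl, which encodes ChREBP, gave 1723 and 2997 on the high-fat arrays and 1457 and 1315 on the control arrays. Its 1.74-fold excess at week 10 was on the high-fat diet, and the control values differed by 1.11-fold the other way.

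Thrsp, or Spot 14, a small nuclear protein that promotes lipogenesis, had the largest fold of the list. Its signal was 1295 at week 2 and 11746 at week 10 on the high-fat diet and 1501 and 2607 on the control diet, which is 9.07-fold and 1.74-fold. The high-fat week 10 array stood above all 3 others. A further Thrsp probe set gave a log2 difference of 3.90 beside 3.18 on the brightest, and the same further probe set gave 0.64 on the control diet.

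Carbon supply to the pathway comes from pyruvate kinase, malic enzyme, ATP-citrate lyase and acetyl-CoA synthetase. Pklr, the liver pyruvate kinase that closes glycolysis, gave 712 and 2665 on the high-fat arrays and 647 and 896 on the control arrays, a 3.74-fold difference on the high-fat diet. Its further probe sets gave log2 differences of 2.09 and of at least 3.32. Me1, the cytosolic malic enzyme that supplies NADPH, gave 1581 and 7007 on the high-fat arrays against 3252 and 3368 on the control arrays. Here the high-fat week 2 array was the lowest of the 4 and the week 10 array the highest, and the fold was 4.43, with a log2 difference of 0.95 on the further probe set. Acly, which cleaves citrate to cytosolic acetyl-CoA, gave 1140 and 4152 on the high-fat arrays and 1274 and 1612 on the control arrays. It was 3.64-fold higher at week 10 on the high-fat diet, with further probe sets at 0.69 and 2.44 on the log2 scale. Acss2, which makes acetyl-CoA from acetate, gave 1211 and 4649 on the high-fat arrays and 1202 and 2619 on the control arrays. It was higher at week 10 on both diets, by 3.84-fold and 2.18-fold.

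The synthase and carboxylases themselves were also higher on the high-fat week 10 array than on that of week 2. Fasn, the fatty acid synthase that builds palmitate, gave 690 and 3721 on the high-fat arrays and 764 and 1277 on the control arrays, a 5.39-fold difference on the high-fat diet with no further probe set to compare. Acaca, the cytosolic acetyl-CoA carboxylase, was at the floor at week 2 and at 270 at week 10 on the high-fat diet, so at least 1.95-fold higher. On the control arrays it was at the floor and at 222, so at least 1.60-fold higher. Acacb, the mitochondrial carboxylase whose product restrains fatty acid import, gave 329 and 837 on the high-fat arrays but 493 and 208 on the control arrays. The 2 diets thus went opposite ways for Acacb, by log2 differences of 1.35 and -1.24, a contrast that was not tested.

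Elongation, desaturation and esterification were less uniform. Elovl6, which elongates palmitate, gave 706 and 1870 on the high-fat arrays and 797 and 573 on the control arrays, and its further probe set gave a log2 difference of 0.93. Scd1, the stearoyl-CoA desaturase, gave 20286 and 35041 on its brightest probe set on the high-fat diet and 18355 and 33741 on the control diet. On that probe set both diets showed a near-equal ratio, 1.73-fold and 1.84-fold. Its second probe set gave 2081 and 18584 on the high-fat arrays and 4035 and 3718 on the control arrays, a log2 difference of 3.16 against -0.12. The Scd1 probe sets therefore disagree in size on the high-fat diet and in sign on the control diet. Pnpla3, a lipid droplet acyltransferase and lipase, was at the floor at week 2 and at 501 at week 10, at least 3.61-fold higher. The 4 members that were lower were Gpam, Lpin1, Elovl2 and Dgat1, of which Gpam and Lpin1 act early in glycerolipid assembly and Dgat1 makes triglyceride from diglyceride. Their log2 differences lay between -0.54 and -0.17, all under 1.5-fold, and the further Gpam probe set went the other way, at 1.31.

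**Figure D2:**
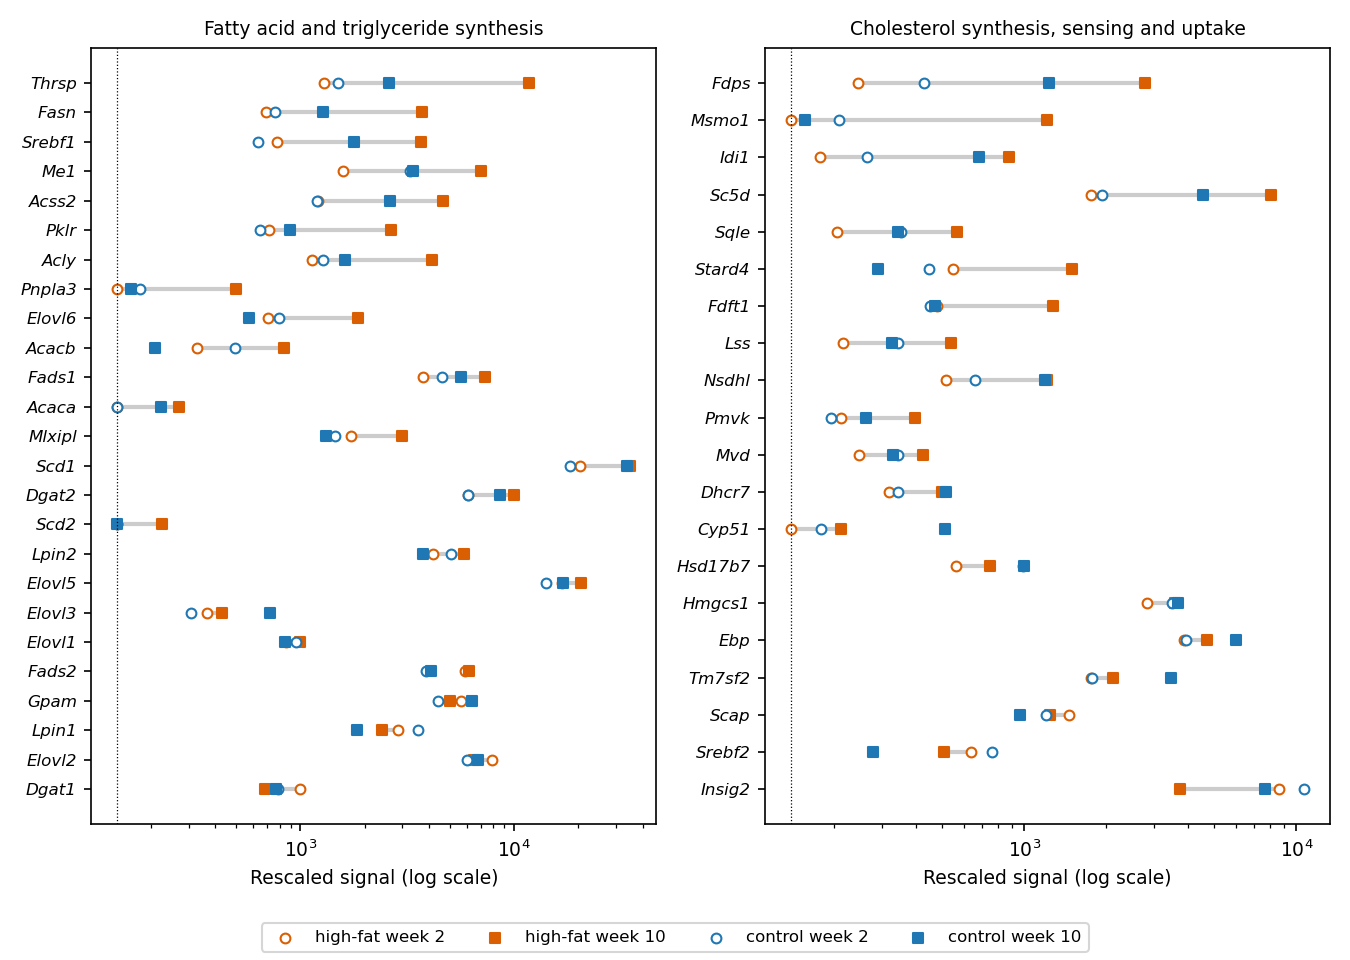
Rescaled signal (log scale) of every counted member of the fatty acid and triglyceride synthesis list (left, 25 genes) and the cholesterol list (right, 20 genes) on the high-fat (orange) and control (blue) arrays of week 2 (open circles) and week 10 (filled squares). Grey bars join the 2 high-fat arrays, the dotted line is the floor of 138.9, and the filled orange square is the rightmost symbol in most upper rows, such as Thrsp at 11746.

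Cholesterol synthesis genes were mostly higher as well. Of 26 genes listed for cholesterol synthesis, sensing and uptake, 20 were counted, 17 of them higher and 3 lower. At 1.5-fold 13 were higher and 1 lower, and at 2-fold 9 were higher and 1 lower. The median log2 difference was 0.84, with a range of 0.65 to 0.90 over the alternatives, and the control diet's median was 0.07. On the control diet 8 of the 20 were at least 1.5-fold higher and 2 lower, against 10.7% and 8.52% of all genes. The high-fat difference was above the control one in 16. It was below it in Tm7sf2, at 0.27 against 0.96, in Ebp, at 0.28 against 0.62, and in Cyp51, at 0.62 or more against 1.52.

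In the mevalonate arm, Fdps, the farnesyl pyrophosphate synthase, had the largest difference of all genes above the floor on both high-fat arrays. Its signal was 244 at week 2 and 2768 at week 10 on the high-fat diet and 430 and 1230 on the control diet, which is 11.33-fold and 2.86-fold. No further Fdps probe set was above the floor to compare, and over the processing alternatives its log2 difference lay between 1.75 and 3.58. Idi1, the isopentenyl-diphosphate isomerase one step earlier, gave 178 and 878 on the high-fat arrays and 263 and 681 on the control arrays, 4.93-fold and 2.58-fold higher at week 10. Its further probe set gave a log2 difference of at least 0.79 on the high-fat diet and of -0.13 on the control diet. Hmgcs1, the cytosolic HMG-CoA synthase at the head of the arm, gave 2823 and 3593 on its brightest probe set, a log2 difference of 0.35, while its 3 further probe sets gave 0.98 to 1.76. Pmvk and Mvd, the kinase and decarboxylase between, were at 0.90 and 0.79.

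From squalene onward most enzymes were also higher. Fdft1, squalene synthase, gave 478 and 1275 on the high-fat arrays and 449 and 471 on the control arrays, with further probe sets at log2 differences of at least 1.16 and of 1.20. These 3 Fdft1 probe sets thus showed more than 2-fold, while another was at the floor on all 4 arrays, and only the high-fat week 10 array stood apart on the brightest. Sqle, squalene epoxidase, gave 204 and 569 on the high-fat arrays and 351 and 345 on the control arrays. Lss, which closes the lanosterol ring, gave 216 and 539 against 342 and 326, and its further probe set was at 0.59 or more. For Sqle and Lss the high-fat week 2 array lay below both control arrays and the week 10 array above them. Msmo1, the sterol C4-methyl oxidase, was at the floor at week 2 and at 1210 at week 10 on the high-fat diet, at least 8.71-fold higher, with 208 and 157 on the control arrays. Nsdhl, which acts beside it in demethylation, gave 516 and 1215 on the high-fat arrays and 658 and 1197 on the control arrays, so that the 2 week 10 arrays were alike. Sc5d, the lathosterol desaturase near the end of the pathway, gave 1756 and 8056 on the high-fat arrays and 1928 and 4535 on the control arrays, 4.59-fold and 2.35-fold. Its further probe set gave 1.86 on the log2 scale for the high-fat diet and -0.42 for the control diet.

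The sensing and transport genes split. Stard4, a sterol carrier of the cytosol, gave 546 and 1494 on the high-fat arrays and 446 and 291 on the control arrays, and its further probe set gave a log2 difference of at least 2.53. Insig2, whose product retains the SREBP escort SCAP in the endoplasmic reticulum, was the 1 member of the list that was lower by 1.5-fold or more. It gave 8620 and 3722 on the high-fat arrays and 10669 and 7686 on the control arrays. Both further Insig2 probe sets were lower still, at -1.81 and -1.95. Srebf2, the gene of SREBP-2, was lower by a log2 difference of -0.33 on the brightest probe set and higher by 0.56 on a further one, so no direction can be given for it, and Scap was at -0.24.

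The region just upstream of the start site was read for these genes because 11 members of the lipid and sterol lists were higher by 2-fold or more on the brightest probe set and by 1.5-fold or more on every other one not at the floor on both arrays. Promoter windows from the RefSeq table of build GRCm38.p6 were counted for 9 of the 11, with 11 windows among them. Fdft1 and Stard4 had no window in the set searched, so the window counts leave them out. The search covered CCAAT, the box bound by nuclear factor Y, which acts beside SREBP at many sterol genes, on both strands in the 250 bases before the start; 7 of the 11 windows held it. Over all 32851 windows of the same length the share with CCAAT was 33.8%. It was 68.2%, or 15 of 22 windows, for the sterol list and 48.3%, or 14 of 29, for the fatty acid synthesis list, several windows belonging to alternative starts of 1 gene. The clock list, whose genes were not mostly higher, had a like share of 66.7%, or 12 of 18 windows, and the heat shock list 34.6%. The E-box CACGTG stood in 18.2% and 10.3% of the windows of these lists, against 16.7% for the clock list and 6.02% of all, and the sterol element spelled TCACNCCAC in 4.55% and 3.45%, against 1.05%. Each of the last shares is 1 window, and a match of letters is a description and not a bound site.

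Windows of 4 of these genes are shown as examples of the matches, 2 from each list, picked after the matches were seen; Pklr, Me1 and Lss also have a window with the box. They run 5′ to 3′ on the gene's strand and end at the base before the start; capitals mark CCAAT or its reverse complement ATTGG and, in Sc5d, also CACGTG. Thrsp lies on the minus strand at chr7:97417551-97417800 and holds 2 boxes, Idi1 on the plus strand at chr13:8885356-8885605 holds 2, Sc5d on the minus strand at chr9:42264301-42264550 holds 1 and the E-box, and Acss2 on the plus strand at chr2:155517793-155518042 holds 1.
Thrsp: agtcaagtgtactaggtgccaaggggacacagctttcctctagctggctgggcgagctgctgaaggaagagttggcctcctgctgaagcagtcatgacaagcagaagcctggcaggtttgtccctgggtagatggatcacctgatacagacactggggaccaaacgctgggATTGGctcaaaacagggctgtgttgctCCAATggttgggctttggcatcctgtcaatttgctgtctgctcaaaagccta
Idi1: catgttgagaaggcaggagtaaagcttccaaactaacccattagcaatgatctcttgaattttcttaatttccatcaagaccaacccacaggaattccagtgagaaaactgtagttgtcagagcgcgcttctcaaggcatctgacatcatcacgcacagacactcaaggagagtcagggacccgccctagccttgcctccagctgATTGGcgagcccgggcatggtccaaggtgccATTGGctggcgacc
Sc5d: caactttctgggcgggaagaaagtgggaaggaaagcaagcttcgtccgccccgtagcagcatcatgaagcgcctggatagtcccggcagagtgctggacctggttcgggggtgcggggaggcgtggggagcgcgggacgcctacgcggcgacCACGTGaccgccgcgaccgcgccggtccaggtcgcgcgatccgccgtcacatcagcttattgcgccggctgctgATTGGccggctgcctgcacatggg
Acss2: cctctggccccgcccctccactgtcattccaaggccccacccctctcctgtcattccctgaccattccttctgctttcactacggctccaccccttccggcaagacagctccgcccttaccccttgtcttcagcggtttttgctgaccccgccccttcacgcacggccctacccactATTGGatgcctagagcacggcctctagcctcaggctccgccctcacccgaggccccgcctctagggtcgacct

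Lipid uptake, storage and lipolysis genes went both ways. Of 23 members counted, 7 passed 1.5-fold upward and 7 downward, against 16.6% and 13.3% of all genes, and the median log2 difference was 0.14. Fabp5, a fatty acid binding protein of epidermis, macrophages and other cells, was the member with the largest difference. It gave 768 and 4422 on the high-fat arrays and 421 and 556 on the control arrays, 5.76-fold higher, and 3.41 on the log2 scale on its further probe set. Fitm1, which helps bud lipid droplets, gave 233 and 1127 on the high-fat arrays and was at the floor and at 389 on the control arrays. Mogat1, which acylates monoglyceride, gave 207 and 501 on the high-fat arrays and 161 and 199 on the control arrays. Cd36, a fatty acid uptake receptor, gave 1814 and 3549 and was 1.96-fold higher, against 1.62-fold on the control diet, with all its probe sets higher on both diets.

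The members with the largest differences downward included the following 4, while others of the droplet surface and of lipolysis, such as Plin2 at 0.02, Plin3 at 0.43 and Lipe at 0.23 on the log2 scale, were not lower. Plin5, the perilipin that couples droplets to mitochondria, gave 2174 and 657 on the high-fat arrays and 1948 and 2073 on the control arrays. Cidec, a droplet fusion protein, gave 431 at week 2 and was at the floor at week 10, at least 3.11-fold lower. Mgll, monoglyceride lipase, gave 7017 and 3481, and Pnpla2, the triglyceride lipase ATGL, gave 2393 and 1317, 2.02-fold and 1.82-fold lower. For Plin5 the high-fat week 10 array alone lay apart from the other 3.

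Of 22 members of the mitochondrial oxidation and ketogenesis list, 16 were lower and 6 higher, but 3 passed 1.5-fold downward and 1 upward, against 13.3% and 16.6% of all genes, so the share past it on the lower side was near that of all genes. The median was -0.20 against 0.11 on the control diet. Fgf21, the fasting hormone of the liver, gave 445 at week 2 and the floor at week 10 on the high-fat diet and 563 and 609 on the control diet. The high-fat fold was at least 3.21 downward. Cpt1a, the gate of mitochondrial fatty acid import, gave 7941 and 5508 on its brightest probe set, 1.44-fold lower, with 5689 and 6430 on the control arrays. Its further probe sets were lower by more, with log2 differences of -1.64 and -2.62; both carry the suffix of probe sets that may read other transcripts. Pdk4, which blocks pyruvate oxidation, gave 512 and 316 on the high-fat arrays against 1030 and 1247 on the control arrays.

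In the peroxisomal and microsomal list 10 of 16 members were lower; 4 passed 1.5-fold on the lower side and 3 on the higher. Acot1, a cytosolic acyl-CoA thioesterase, gave 3964 and 1107 on the high-fat arrays and 3619 and 4743 on the control arrays. Decr2, a peroxisomal dienoyl-CoA reductase, gave 3653 and 1800 against 4037 and 4910, and Ehhadh, the peroxisomal bifunctional enzyme, gave 12083 and 6967 against 13113 and 12738. For these 3 genes the week 10 high-fat array was the lowest of the 4. Acot3, a peroxisomal thioesterase and close relative of Acot1, went the other way, at 1489 and 2981. The list's median was -0.29, and on the control diet 0.31.

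**Figure D3:**
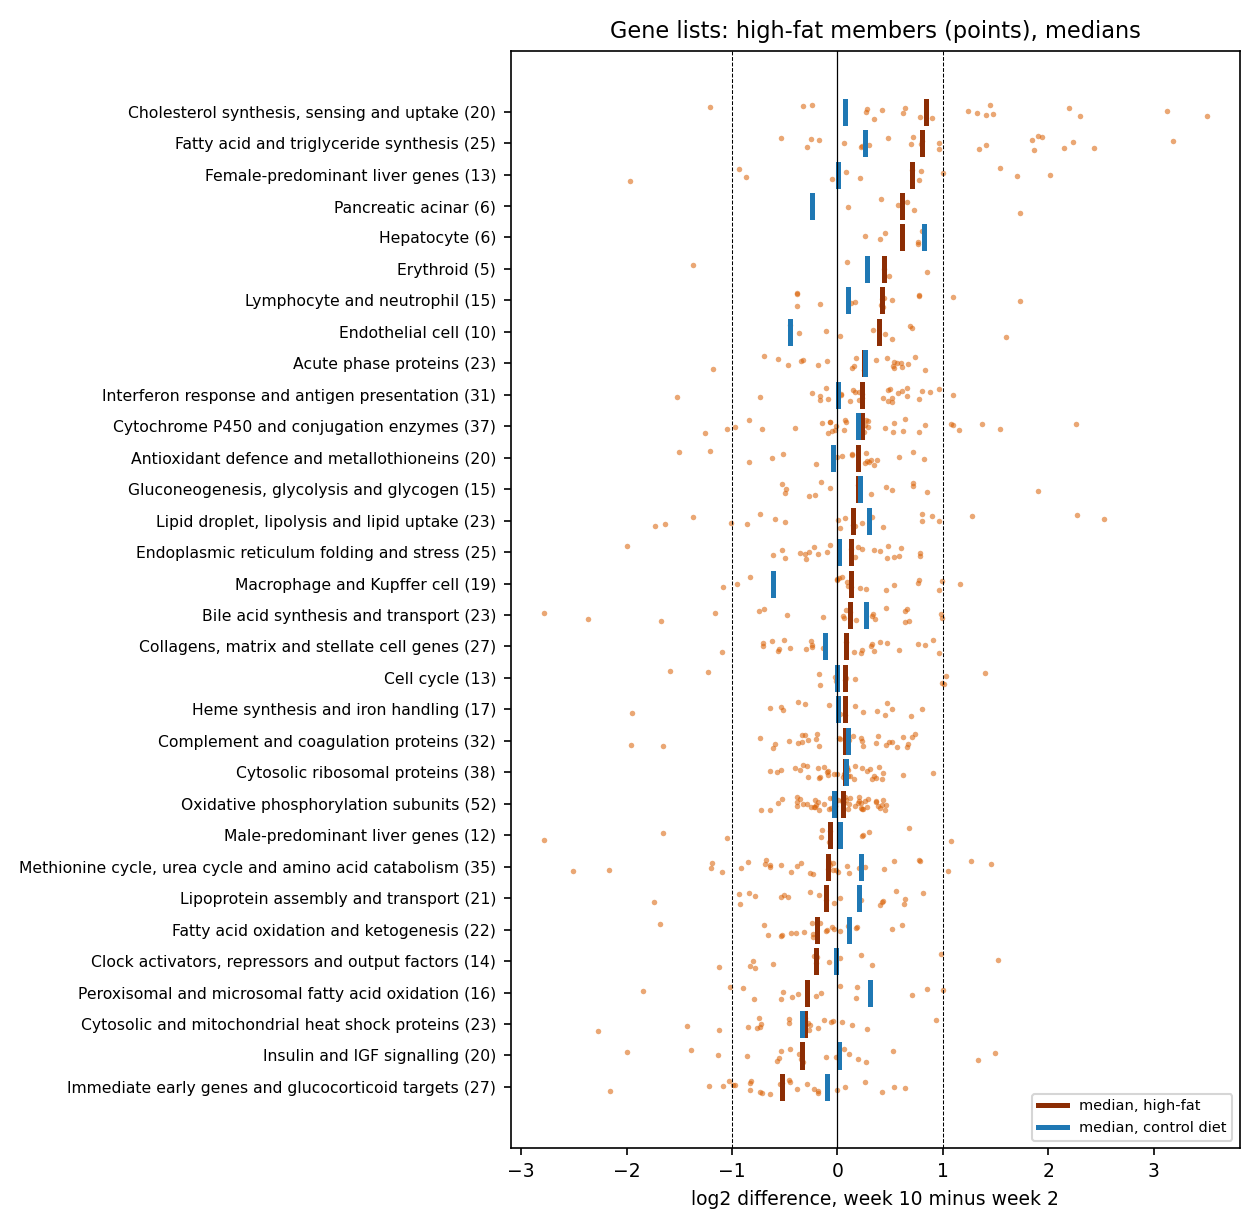
Log2 difference between the high-fat arrays, week 10 minus week 2, for the counted members of each gene list (points; number of members in parentheses), with list medians on the high-fat diet (dark red) and the control diet (blue). Dashed lines mark 2-fold; the cholesterol and fatty acid synthesis lists have high-fat medians of 0.84 and 0.80, and the immediate early list one of -0.53.

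Lipoprotein genes were mostly within 1.5-fold, with 3 of 21 above and 5 below it and a median of -0.10 that ran from -0.22 to 0.03 over the alternatives. Apob, the structural protein of very low density lipoprotein, gave 20473 and 6116 on the high-fat arrays and 22725 and 21449 on the control arrays, 3.35-fold lower on the high-fat week 10 array alone. Scarb1, the HDL receptor, gave 3978 and 2086, and its further probe sets gave a log2 difference of -1.81. Apoa4, an apolipoprotein induced by lipid load in liver, gave 13439 and 7071 on the high-fat arrays and 5684 and 2261 on the control arrays. Apoa4 was lower at week 10 on both diets and its signal on each high-fat array was above that on the control array of the same week. Pltp, which remodels phospholipid in HDL, gave 3323 and 5820, with 1.39 on its further probe set.

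Of 23 bile acid genes counted, 6 passed 1.5-fold on each side, against 16.6% higher and 13.3% lower of all genes. On the lower side 4 passed 2-fold, against 4.26% of all genes. Cyp7a1, which commits cholesterol to bile acids, gave 1114 and 1742 on the high-fat arrays and 2318 and 2871 on the control arrays, 1.56-fold higher. Cyp8b1, the sterol 12-hydroxylase that makes cholic acid, gave 7351 and 2299 against 7329 and 6093, 3.20-fold lower. Cyp39a1, an oxysterol hydroxylase, gave 2252 and 436 on the high-fat arrays and 2968 and 1084 on the control arrays, so it was lower at week 10 on both diets, by 5.16-fold and 2.74-fold. The organic anion transporter Slco1a1 gave 956 and the floor on the high-fat arrays and 823 and the floor on the control arrays, at least 6.88-fold and at least 5.92-fold lower. For Slco1a1 the 2 diets were alike, and its further probe set was at the floor on both week 10 arrays as well.

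Of the gluconeogenic and glycolytic genes only Pklr passed 2-fold. Of 15 counted, 4 were at least 1.5-fold higher and none lower, against 16.6% and 13.3% of all genes. Gckr, the regulatory protein of glucokinase, gave 1895 and 3426 on the high-fat arrays and 1567 and 1746 on the control arrays. Ugp2 and Pgd, also among the 4, had further probe sets on both sides of 0. In insulin and IGF signalling 13 of 20 members were lower. At 1.5-fold 4 were lower and 2 higher, against 13.3% and 16.6% of all genes. Trib3, a stress-induced inhibitor of AKT, gave 730 and 183 on the high-fat arrays and 366 and 345 on the control arrays, and its further probe set gave -1.04. Here the week 2 high-fat array was the highest of the 4 and the week 10 array the lowest. Igfbp2, a circulating IGF carrier, gave 13374 and 6080 against 11352 and 10654, and Igfbp1, a fasting-induced carrier, gave 12893 and 7126 against 14960 and 12998. Socs3, which damps cytokine and insulin signalling, gave 382 and 146, with -0.91 on the further probe set. Igfals, the acid-labile subunit that prolongs IGF-1 in plasma, gave 511 and 1438 on the high-fat arrays and 431 and 907 on the control arrays.

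Of 35 genes in the amino acid and one-carbon list 5 were at least 1.5-fold higher and 11 lower, against 16.6% and 13.3% of all genes. Nnmt, which methylates nicotinamide, gave 3967 and 696 on the high-fat arrays and 5739 and 3914 on the control arrays, 5.70-fold and 1.47-fold lower at week 10. Asl, the argininosuccinate lyase of the urea cycle, gave 13013 and 2898 on the high-fat arrays and 11503 and 12080 on the control arrays. The Asl value of the high-fat week 10 array lay 4.49-fold under that of week 2 while the 2 control arrays differed by 1.05-fold. Cth, which makes cysteine from cystathionine, gave 9609 and 4504, and Aass, which starts lysine breakdown, 6435 and 2825. Gpt2, a mitochondrial alanine aminotransferase outside the list, gave 4707 and 1792, with further probe sets at -1.67 and -1.74. Uroc1, the urocanase of histidine breakdown, gave 3729 and 10259 on the high-fat arrays and 4793 and 11396 on the control arrays on its brightest probe set. Its further probe set gave log2 differences of 1.94 on the high-fat diet and -1.07 on the control diet. The Uroc1 probe sets therefore disagree in sign on the control diet.

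Among 37 cytochrome P450 and conjugation genes 10 passed 1.5-fold upward and 5 downward, against 16.6% and 13.3% of all genes. The mu-class glutathione transferases were low on the high-fat week 2 array. Gstm3 gave 517 and 2484 on the high-fat arrays and 1169 and 978 on the control arrays, Gstm1 10116 and 21338 against 19451 and 20154, and Gstm2 654 and 1693 against 1160 and 1037. In all 3 the high-fat week 2 array was the lowest of the 4, and for Gstm1 the week 10 array was near the control arrays. These genes are close relatives, and 1 transcript may be read by probe sets of another. Cyp2c70, which makes muricholic acids in mice, gave 4983 and 14532 on the high-fat arrays and 6315 and 10088 on the control arrays.

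The metallothioneins, metal-binding proteins induced by zinc and glucocorticoids, went opposite ways on the diets. Mt1 gave 15144 and 5332 on the high-fat arrays and 10845 and 20728 on the control arrays. Mt2 gave 7110 and 3068 on the high-fat arrays and 3733 and 7969 on the control arrays, log2 differences of -1.21 and 1.09. A dimmer Mt1 probe set gave -0.53 and -0.37, so the opposite sign on the control diet was not seen there. Of the 20 genes in the antioxidant list 3 were at least 1.5-fold higher and 4 lower, against 16.6% and 13.3% of all genes. In heme synthesis Cpox, coproporphyrinogen oxidase, gave 4384 and 1136 on the high-fat arrays and 1692 and 2292 on the control arrays. Its further probe set gave -1.11 on the high-fat diet and -0.69 on the control diet.

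Immediate early and glucocorticoid-responsive genes were mostly lower. Of 27 counted, 22 were lower and 5 higher; 12 were at least 1.5-fold lower and 1 at least 1.5-fold higher. The median was -0.53, between -0.68 and -0.45 over the alternatives, against -0.10 on the control diet. Egr1, a serum-induced transcription factor, gave 1924 and 430 on the high-fat arrays and 1994 and 1638 on the control arrays, 4.47-fold lower. Cebpb, a liver-enriched factor of the acute phase and gluconeogenesis, gave 4468 and 2248 against 3595 and 4247. Fos, however, gave 464 and 299 on the high-fat arrays and 1375 and 276 on the control arrays, so that the control week 2 array was the high one. Outside this list, in that of the cell cycle, Cdkn1a, the p53-responsive inhibitor, gave 949 and 315 on the high-fat arrays and 1940 and 1499 on the control arrays.

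Heat shock genes were lower on the week 10 arrays of both diets. Of 23 counted, 19 were lower and 4 higher on the high-fat diet, 8 at least 1.5-fold lower and 1 higher, and the medians were -0.31 on the high-fat and -0.34 on the control diet. Hspa1b, the inducible HSP70, gave 2466 and 511 on the high-fat arrays and 2511 and 1449 on the control arrays, with further probe sets at -1.12 and -1.39; these probe sets may also read its near-identical neighbour Hspa1a. Hsph1, an HSP70 exchange factor, gave 1956 and 728 on the high-fat arrays and 1704 and 877 on the control arrays. For both genes the 2 week 2 arrays were above the 2 week 10 arrays. The endoplasmic reticulum list showed no such lean, with 13 higher and 12 lower of 25 and 3 and 2 past 1.5-fold.

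Secreted defence proteins differed by gene. Of 32 complement and coagulation genes 5 passed 1.5-fold on each side, near the 16.6% higher and 13.3% lower of all genes. The largest differences were those of the complement C8 chains C8b, at 1058 and 271 on the high-fat arrays against 977 and 882, and C8a, at 2727 and 865 against 2004 and 2075. In the acute phase list 5 of 23 were at least 1.5-fold higher and 2 lower, and Saa3, a serum amyloid of macrophages and adipocytes, gave 375 and 165. In the interferon and antigen presentation list 24 of 31 were higher, 8 past 1.5-fold, with a median of 0.23 against 0.01 on the control diet. Igtp, an interferon-γ-induced GTPase, gave 788 and 1690 on the high-fat arrays and 1005 and 1063 on the control arrays, whereas Rsad2, or viperin, gave 1224 and 427 but had further probe sets on both sides of 0. Neither the oxidative phosphorylation list of 52 nor the cytosolic ribosomal list of 38 held a gene past 2-fold, and their medians, 0.05 and 0.07, changed sign between processing alternatives.

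Markers of the cells in liver were read the same way; in RNA of whole tissue, a change in the number of cells and a change in RNA per cell cannot be told apart. The 6 hepatocyte markers counted were all higher at week 10, as they were by median on the control diet, 0.61 and 0.82. Alb gave 28504 and 48530 on the high-fat arrays and 33664 and 71039 on the control arrays, so liver RNA was present on every array. Of 19 macrophage and Kupffer cell markers 5 were at least 1.5-fold higher and 3 lower, and their summed signal was 19591 at week 2 and 23610 at week 10 on the high-fat diet against 22124 and 15317 on the control diet. Cd14 and Adgre1 were higher, at 312 and 699 and at 547 and 1067, while Marco and Cd163 were lower, at 294 and the floor and at 320 and 165. On the control diet Marco was likewise at 325 and the floor and Cd163 at 316 and 152. On the high-fat diet 14 of the macrophage markers were higher and 5 lower, with a median of 0.13, so they did not move as 1 group there. On the control diet 10 of the 19 were at least 1.5-fold lower and 0 higher, with a median of -0.61. In 18 of the 19 the high-fat difference was above the control one, a contrast that was not tested.

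The 10 endothelial markers counted had a median of 0.39 and summed signals of 5410 and 7527 on the high-fat arrays and of 6821 and 5010 on the control arrays. The 15 lymphocyte and neutrophil markers counted had sums of 3004 and 4291, while Cd3d, Cd4 and Cd8a were at the floor on both high-fat arrays. Pancreatic acinar markers, which would mark tissue carried over at dissection, were dim: 6 of the 10 on the array were counted, all higher at week 10, with summed signals of 1499 and 2506. Of these Prss2 gave 199 and 660, its further probe sets lay on both sides of 0, and Cela2a, Cpa1, Cpb1 and Reg1 were at the floor. Adipoq and Lep, which define fat tissue, were at the floor on both high-fat arrays, and 7 of 9 skeletal muscle markers were as well. The part of these cell types in the results was not tested.

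Genes that differ between male and female liver were also read, since the labels give no sex. Of 13 female-predominant genes 7 passed 1.5-fold upward and 3 downward, with a median of 0.71 on the high-fat diet and 0.01 on the control diet; over the alternatives the former lay between 0.22 and 0.79. Hao2, a peroxisomal hydroxy acid oxidase, gave 379 and 1531 on the high-fat arrays and 228 and 1255 on the control arrays, higher on both diets. Sult3a1, a sulfotransferase, went the other way, at 2447 and 625 on the high-fat arrays against 1882 and 1508. Among 12 male-predominant genes 2 passed 1.5-fold upward and 3 downward, with Mup5, a major urinary protein with near-identical relatives, at 656 and 1383 on the high-fat and 312 and 865 on the control arrays, and Slco1a1 at the values above.

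Clock genes can differ with the hour of collection, which the labels do not give. Of 14 counted, 2 were at least 1.5-fold higher and 5 lower. Dbp, an output factor that peaks late in the day, gave 421 and 1211 on its brightest probe set on the high-fat arrays and was at the floor on both control arrays, and its further probe set gave 0.27. Clock itself gave 429 and 197 on the high-fat arrays and 362 and 323 on the control arrays. Its further probe set gave -1.22 or lower on the high-fat diet and -1.12 on the control diet. Arntl, the partner of CLOCK, gave 285 and 165 against 695 and 654, so both high-fat arrays were under both control arrays. The part of collection time in the other results was not tested.

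Outside the lists, the largest differences measured on both arrays included 3 genes of secretion and transport. Aqp8, a water and ammonia channel of the hepatocyte canaliculus and mitochondria, gave 447 and 3891 on the high-fat arrays and 562 and 1077 on the control arrays, 8.71-fold and 1.92-fold higher. Serpina6, the corticosteroid-binding globulin of plasma, gave 1328 and 10030 against 2206 and 5888, 7.55-fold and 2.67-fold. Serpina12, or vaspin, gave 192 and 1151 on the high-fat arrays and 173 and 149 on the control arrays. Aqp8 and Serpina6 have 1 probe set each. Serpina12 has a second one that was at the floor on all 4 arrays, and with the probe sets averaged its log2 difference was 1.29, against 2.58 on the brightest. On the lower side Rusc1 gave 1080 and 184 on the high-fat and 508 and 145 on the control arrays, but its further probe sets gave -0.47 to 0.71. Ubqln2, a ubiquitin shuttle protein, gave 1221 and 297, and its further probe set gave at least 0.11. For Rusc1 and Ubqln2 the size rests on a single probe set that the others did not repeat.

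Further probe sets of the same gene read the same 2 RNA preparations again and so bear on the probe and not on the mouse. Of the 2-fold genes, 307 had a second probe set above the floor, and the second brightest had the same sign in 213, or 69.4% (exact Clopper-Pearson 95% interval 63.9 to 74.5, counting error over genes only). The share was 68.1% for genes higher and 70.2% for genes lower, while over all 3010 genes with a second probe set 51.6% of second probe sets were higher and 48.4% lower. A second probe set at least 1.5-fold the same way was found for 41 of 119 higher genes and 62 of 188 lower genes. One at least 1.5-fold the opposite way was found for 10 and 15. Over all 3010 genes with a second probe set, 541 second probe sets, or 18.0%, were at least 1.5-fold higher. Another 555, or 18.4%, were at least 1.5-fold lower. The spread per probe set was 0.57 on the log2 scale over 3010 genes. It is the SD of the difference between the 2 brightest probe sets, divided by the square root of 2.

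Among probe sets that exceeded the floor on a high-fat array, every further one was at least 1.5-fold the same way for 34 genes higher and 38 genes lower at week 10. Probe sets at the floor on both high-fat arrays were not counted here, and some of these genes have them, such as Ddr1, Acly, Fdft1, Lss, Lipg, Celf2 and Topors. Ranked by their smallest difference, the higher ones began with Thrsp, Fabp5, Gstm3, Pklr, Lgals1, Sc5d and Car3. Lgals1, galectin-1, gave 365 and 1460 on the high-fat arrays and 574 and 760 on the control arrays. Car3, a carbonic anhydrase abundant in fat, muscle and liver, gave 7802 and 23048 against 7224 and 22713, so it was higher at week 10 on both diets, with log2 differences of 1.56 and 1.65. On its further probe set these were 2.73 and 1.59. Cyb5b and Cyb5r3, which pass electrons to desaturases and sterol enzymes among others, were 2.89-fold and 2.06-fold higher on the high-fat diet. Lipg, endothelial lipase, gave 294 and 693 against 564 and 373.

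The lower ones began with Tmed5, Kdm6a, Map2k2 and Gpt2. Tmed5, a cargo receptor between endoplasmic reticulum and Golgi, gave 3641 and 1065 on the high-fat arrays and 3465 and 3340 on the control arrays, with -2.06 on its further probe set. Grn, progranulin, gave 14184 and 4016 against 13970 and 13327, with further probe sets between -1.54 and -1.15. Kdm6a, a histone demethylase, gave 388 and the floor against 449 and 523. For these 3 the high-fat week 10 array was the 1 array that lay apart. Also in this set were Ythdc1, a reader of methylated adenosine in RNA, at 899 and 239 against 594 and 406, and Bmi1, a Polycomb protein, at 469 and 227 against 326 and 299; both were picked out after their values were seen.

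**Figure D4:**
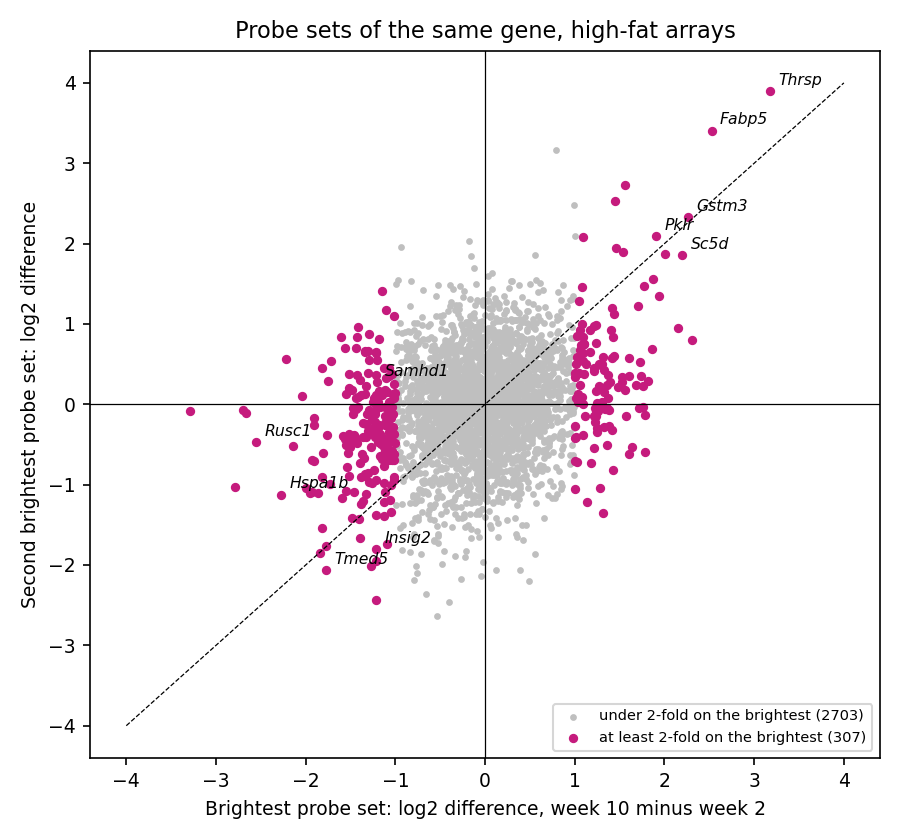
Log2 difference between the high-fat arrays, week 10 minus week 2, on the brightest (horizontal axis) and second brightest (vertical axis) probe set of 3010 genes; magenta marks the 307 genes at least 2-fold on the brightest. The dashed line marks equality; magenta points on the same side of 0 on both axes make up 69.4%, and Thrsp stands at 3.18 and 3.90.

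The same interval on the control diet shows how far the weeks differed without the high-fat diet; the 2 intervals share no array. Of the 365 genes 2-fold higher on the high-fat diet, 84, or 23.0%, were at least 1.5-fold higher on the control diet too, against 10.7% of all genes counted. A further 250 were under 1.5-fold there and 31 were at least 1.5-fold lower, or 8.49%, against 8.52% of all genes. Of the 388 genes 2-fold lower, 69, or 17.8%, were at least 1.5-fold lower on the control diet, against 8.52% of all, 281 were under 1.5-fold and 38 were at least 1.5-fold higher, or 9.79%, against 10.7%. At 2-fold on both diets 33 genes were higher, which is 9.04% of the high-fat genes and 14.7% of the control genes, and 26 were lower, which is 6.70% and 15.95%. Genes with at least 2-fold opposite ways numbered 23. Of the 365 genes higher on the high-fat diet, 9 were at least 2-fold lower on the control diet, where 163 of all 9098, or 1.79%, were. Of the 388 lower genes, 14 were at least 2-fold higher on the control diet, where 224 of all 9098, or 2.46%, were.

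The 2-fold genes were sorted by which high-fat array lay apart. They were chosen for a difference between those 2 arrays, so that 1 of them lies apart is partly built in. No like count was made over all genes. Of the 365 higher genes, the week 10 array was at least 1.5-fold beyond the other 3 arrays in 140, the week 2 array in 77, both in 13 and neither in 135. Of the 388 lower genes these counts were 206, 64, 11 and 107. Thrsp, Fasn, Pklr, Fabp5, Apob, Asl, Egr1, Plin5 and Grn had the week 10 array apart, and Gstm1, higher at week 10, had the week 2 array apart.

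**Figure D5:**
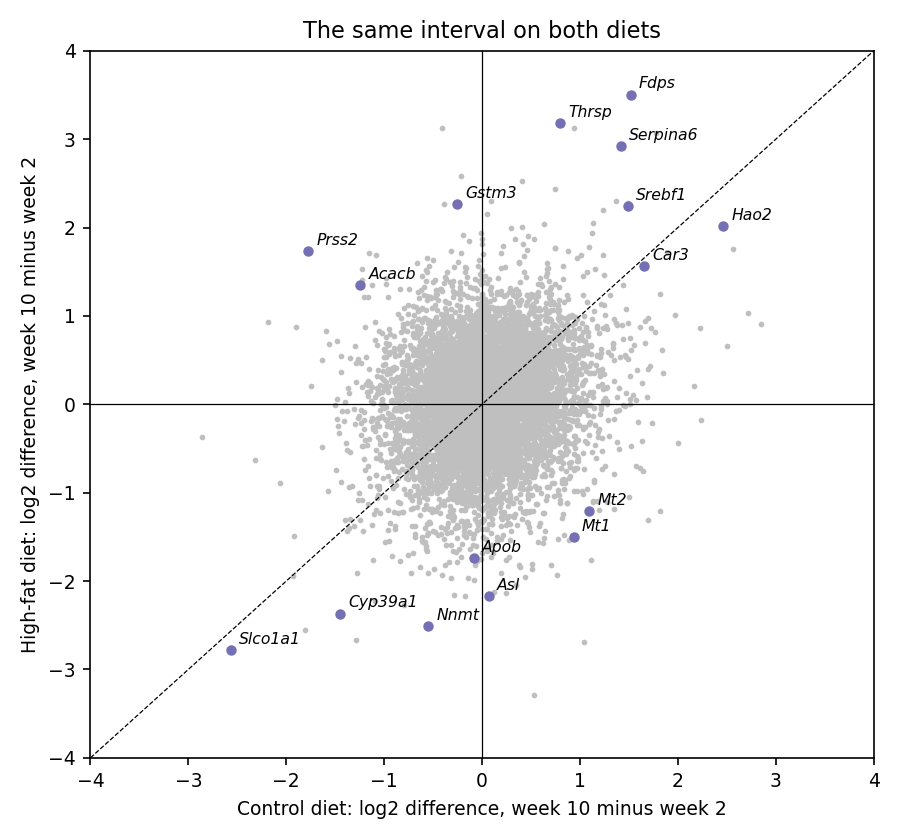
Log2 difference week 10 minus week 2 on the control diet (horizontal axis) against the high-fat diet (vertical axis) for the genes counted, with selected genes named. The dashed line marks equal differences; Car3 and Slco1a1 lie near it, Asl, Apob and Gstm3 near the vertical axis, and Acacb, Prss2, Mt1 and Mt2 in the quadrants where the diets went opposite ways.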

How the data were processed

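Per the labels' protocols, total RNA of snap-frozen liver was extracted by Trizol, cleaned on a column and turned into biotinylated cRNA. The deposited table holds, for 4 arrays, 1 linear signal intensity for every probe set; how probes were summarised is not stated in the labels. The values themselves show that the authors scaled 3 arrays to a trimmed mean of 499.9 and the control week 2 array to 799.9. Arrays give no read depth, and their number, 1 per diet and week, limits the precision.

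Of 22690 probe sets, 64 controls were left out. The deposited platform annotation gave 20380 probe sets 1 symbol, 691 several and 1555 none; symbols were updated through gene IDs with the RefSeq table of GRCm38.p6 for 20351. On the log2 scale the median of each array, over probe sets that exceeded the floor on all 4, was subtracted and the values put back on the mean of the 2 high-fat centres. The floor is the pooled 40th percentile. The brightest probe set by mean over 4 arrays stands for a gene, and genes above the floor on at least 1 high-fat array were counted, since a filter on both would lose genes that were low on 1 array. No replicate exists, so no test was run; shares carry exact 95% intervals.

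Genes were named by rule: the 10 largest differences per direction measured on both arrays; the first 12 per direction at least 2-fold on the brightest and at least 1.5-fold the same way on every further probe set; up to 4 largest per list; and a fixed list of lipid, clock and stress genes. Any other gene in the text was picked with its values in view. The members, the 26 pathway lists and the 10 marker lists were chosen with earlier results of these data known. Of 884 list entries, 122 were not analysed here. Alternatives were no recentring, quantile normalization, loess on brightness (span 0.3), floors at the 20th and 60th percentiles, other filters, the mean of all probe sets, and leaving out probe sets that may read several transcripts. The fold computation was tested on simulated data. Work was done with Python 3.11.15, numpy 2.4.6, pandas 2.3.3, scipy 1.17.1 and statsmodels 0.14.6.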

Additional observations from a re-analysis of the deposited data

Results flagged for a closer look

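Between the 2 diets, 4 genes of the lists were at least 2-fold opposite ways over the same interval, beside 23 of the 9098 genes counted. With 1 array per diet and week, the difference between diets was not tested. Acacb had a log2 difference, week 10 minus week 2, of 1.35 on the high-fat diet and -1.24 on the control diet. Glul, glutamine synthetase of the hepatocytes around the central vein, had -1.20 and 1.09, and its further probe set -0.30 on the high-fat diet. Mt2 had -1.21 and 1.09. Prss2, a trypsinogen, had 1.73 and -1.78, with further probe sets between -0.32 and 0.35 on the high-fat diet. In Glul, as in Mt2, the high-fat week 2 and control week 10 arrays were the high ones, at 7829 and 8864 for Glul against 3413 and 4156 on the other 2.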

How the results depend on the processing

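The 2-fold counts depended most on the floor. With the floor at the 20th percentile 925 genes were higher and 742 lower, of which 233 and 169 were at least 1.5-fold the same way on the control diet; at the 60th percentile these were 149, 254, 45 and 37, and the same-sign share of second probe sets was 76.7%. Averaging all probe sets of a gene gave 227, 233, 49 and 40. With no recentring 17 and 226 genes were the same way on the control diet. That setting keeps the control week 2 array at its trimmed mean of 799.9, against 499.9 on the others. With only genes above the floor on all 4 arrays, an alternative added after seeing the data, 241 genes were higher. Leaving out probe sets that may read several transcripts turned Ighm to -0.14 and Rusc1 to 0.71, because another probe set then stood for each gene. Why the probe sets of these genes differ was not tested. The 4 counts stayed within 1.5 times under quantile normalization, loess, no filter, the filter on both high-fat arrays and without the shared probe sets. No paired analysis was possible because each group has 1 array and the labels carry no replicate numbers.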

Other observations

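Of the 23 genes at least 2-fold opposite ways on the 2 diets, 12 had a further probe set above the floor on a high-fat array, and for 0 of the 12 was every further probe set at least 1.5-fold the same way. Samhd1, a dNTP hydrolase, gave 902 and 391 on the high-fat arrays and 303 and 1071 on the control arrays, and Reep3, an endoplasmic reticulum shaping protein, gave 2698 and 1185 against 1270 and 3221; both were chosen after their values were seen. In the cell cycle list of 13 genes Pcna, the sliding clamp of DNA replication, gave 652 and 1329 on the high-fat arrays and 1192 and 1140 on the control arrays, while Rrm2, a ribonucleotide reductase subunit, gave 443 and 190 against 477 and 545. Collagen and matrix genes were split, 4 of 27 at least 1.5-fold higher and 4 lower, with Col3a1, a fibrillar collagen, at 348 and 679 and Col4a1, a basement membrane collagen, at 857 and 402.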
